A study of Homo sapiens with 4 samples.

Results

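Levels of 9 nuclear receptor genes other than the estrogen and progesterone receptors were followed through an estrogen time course in 2 established human cell lines. The genes were taken by name from the feature lists, before any filter on level, and all 9 were found among the 33540 features of the Ishikawa list and the 33538 of the T-47D list. They are NR3C1 (the glucocorticoid receptor), RARA (a retinoic acid receptor), RXRA (a retinoid X receptor), VDR (the vitamin D receptor), NR2F1, NR2F2 and NR2F6 (the COUP-TF family of orphan receptors), NR4A1 (an immediate-early orphan receptor) and ESRRA (an estrogen-related receptor). In both lists 48 human nuclear receptor genes were matched by symbol.

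Ishikawa is a line from an endometrial adenocarcinoma and T-47D a line from a breast carcinoma. Both lines express the estrogen receptor gene ESR1 and both were kept in hormone-depleted medium (without phenol red and with charcoal-stripped serum) before treatment. The E2 groups received 10 nM 17β-estradiol (E2), the main estrogen, for 2, 4 or 8 h, and the 0 h group received the DMSO vehicle. Cells of the 4 time points were marked with MULTI-seq, a DNA tag held in the cell membrane, then mixed and run as 1 droplet library for each line. Each line and time point is therefore 1 culture with no replicate, no test or p-value is given, and every interval is a 95% interval that covers counting error only. The Ishikawa feature list also holds the reporters GFP and tdTomato, which the T-47D list does not.

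Nuclear receptors are transcription factors that bind DNA through a zinc finger domain, and many are switched on by a small lipophilic ligand. The glucocorticoid receptor acts mostly as a homodimer and waits for its ligand in a chaperone complex, whereas RARA and VDR bind DNA as heterodimers with a retinoid X receptor. COUP-TFs and ESRRA have no generally accepted natural ligand that switches them on, and their activity is set largely by their level and by coregulators. NR4A1 is induced within minutes by many stimuli and its transcript is short-lived. In cells of the breast and endometrium these receptors share coregulators, and partly DNA sites, with the estrogen receptor.

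The authors' tag calls and the limits on cell quality left 4613 Ishikawa cells (776, 1480, 892 and 1465 at 0, 2, 4 and 8 h) and 4626 T-47D cells (1525, 1207, 1341 and 553). The 8 pools of summed cells held between 12927799 and 33175309 UMIs, the unique molecular identifiers that each mark a captured transcript. In Ishikawa the limits kept 38.2% of the called 0 h cells and 52.4% to 55.8% of the later cells, so each Ishikawa comparison with 0 h sets a more strongly filtered pool against less filtered ones. The libraries shared 5 cell barcodes among kept cells. The lines matched their labels, since 5 of 5 epithelial markers passed 10 CPM in both, 6 breast luminal markers summed to between 1958 and 2265 CPM in T-47D and at most 27.6 CPM in Ishikawa, and 4 of 5 endometrial and Müllerian markers had no UMI in T-47D. Immune and endothelial markers summed to at most 2.43 CPM in any pool. Fibroblast markers summed to between 21.5 and 30.4 CPM in Ishikawa, mostly from COL1A1. In T-47D they summed to between 12.5 and 16.4 CPM, mostly from LUM and COL1A1.

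RARA and NR2F1 were the members past the fold rule in both lines, and the 250 bases before their most upstream transcript start in the RefSeq table are shown for that reason. The windows are from RefSeq on GRCh38.p14, on the plus strand, at chr17:40308930-40309179 for RARA and chr5:93582972-93583221 for NR2F1, and end just before the start. Capitals mark GGTCA on either strand (TGACC on the other), the core shared by the half-sites of estrogen, retinoid, vitamin D, COUP-TF and estrogen-related receptors.
RARA: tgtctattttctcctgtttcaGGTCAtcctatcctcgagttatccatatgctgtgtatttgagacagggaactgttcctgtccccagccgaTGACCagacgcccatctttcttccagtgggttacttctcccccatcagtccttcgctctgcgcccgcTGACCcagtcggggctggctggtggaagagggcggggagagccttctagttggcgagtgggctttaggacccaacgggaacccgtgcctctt
NR2F1: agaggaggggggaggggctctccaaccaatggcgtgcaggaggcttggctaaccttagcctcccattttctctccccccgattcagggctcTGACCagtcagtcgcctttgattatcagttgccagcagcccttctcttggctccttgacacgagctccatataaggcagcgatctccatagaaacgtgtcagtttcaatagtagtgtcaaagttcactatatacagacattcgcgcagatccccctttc
The RARA window held 3 cores, 229, 159 and 92 bases before the start, counted at the core's first base, and the NR2F1 window held 1 core 159 bases before it. Of the 35116 promoter windows of the same length in the table, 32.6% held at least 1 core. RARA had 3 windows, of which 1 held a core, and NR2F1 had 2, both with a core. RXRA had 1 of 2 windows with a core, and 7 NR3C1, 2 NR2F2, 2 NR4A1 and 1 ESRRA windows had none. No member's window held GGTCA and TGACC separated by 3 bases, the palindrome of an estrogen response element, which was present in 0.0399% of all windows. The reads come from the 3′ end, so they do not tell which start was used, and a match is a run of letters, not a measured binding site. VDR and NR2F6 windows were not used here.

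To find how far the receptor genes responded to E2, the pools at 2, 4 and 8 h were set against the vehicle pool of their line. Levels are UMI counts scaled to 1000000 UMIs of a pool (CPM), and changes are given as log2((CPM + 1)/(CPM at 0 h + 1)), which understates the change of low genes. The fold rule asked for a mean level of 10 CPM or more over a line's 4 pools and for a change of 1.5-fold or more, which is 0.58 as log2. Of the 9 members, 6 passed the minimum in Ishikawa (all but VDR, NR2F2 and NR4A1) and 8 in T-47D (all but NR4A1). RARA in Ishikawa and NR2F1 in both lines had pools under 10 CPM and passed through the pools in which they were higher.

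In Ishikawa at 2 h, RARA and NR2F6 were past the rule as higher, beside 0.786% of the 7885 genes tested, and NR2F1 as lower, beside 0.659%. At 4 h no member was past it as higher, beside 0.634% of genes, and NR2F1 alone was lower, beside 0.621%. At 8 h none was higher, beside 0.812%, and NR2F1 was again lower, beside 0.469%. In T-47D RARA was higher and NR2F1 lower at each time. The shares of the 7440 T-47D genes past the rule as higher were 1.22%, 1.33% and 2.34% at 2, 4 and 8 h, and as lower 0.417%, 0.363% and 0.726%. RARA and NR2F1 thus each kept 1 direction across both lines, while NR2F6 was past the rule in Ishikawa alone, and whether that differs between the lines was not tested. The other members stayed within 1.5-fold wherever they passed the minimum.

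**Figure D1:**
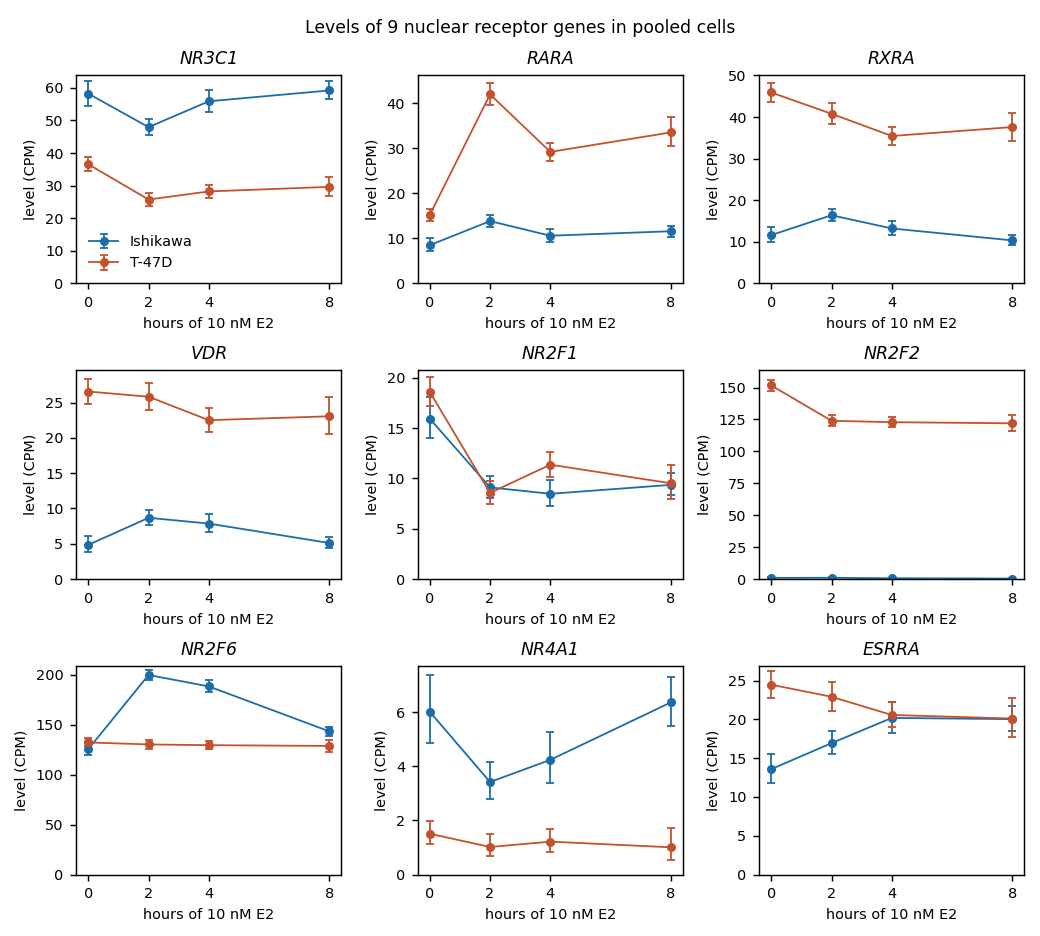
Level in CPM (y axis, each panel with its own scale from 0) of each of the 9 receptor genes against hours of 10 nM E2 (x axis) in Ishikawa (blue) and T-47D (orange), with exact Poisson intervals as bars and 1 culture per point. RARA was highest at 2 h in T-47D, at 41.9 CPM, NR2F1 was highest in each line at 0 h, and NR2F2 lay near 0 in Ishikawa at every time.

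RARA (ENSG00000131759) showed the highest change of the members. The gene encodes retinoic acid receptor alpha, which activates its targets when it binds all-trans retinoic acid and holds them down without it. In T-47D its level was 15.2 CPM (13.9 to 16.6) before E2, 41.9 CPM (39.5 to 44.5) after 2 h, 29.2 CPM (27.3 to 31.2) after 4 h and 33.5 CPM (30.4 to 36.8) after 8 h. All E2 pools lay above 0 h and the intervals did not overlap with it. The changes of 1.41, 0.90 and 1.09 placed RARA 16th, 46th and 52nd from the highest of 7440 genes. The plain ratio to 0 h was 2.76 at 2 h (2.48 to 3.07), and the level at 4 h was 0.696 times that at 2 h (0.636 to 0.761).

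The share of T-47D cells with a RARA UMI was higher after E2 along with the level. To compare shares at equal depth, each cell was thinned at random to a fixed number of UMIs, 14495 for T-47D and 12539 for Ishikawa, and 463 and 461 shallower cells were left out. The thinned share of T-47D cells with a RARA UMI was 18.2% (16.1% to 20.4%) before E2, 43.8% (40.8% to 46.8%) after 2 h, 31.7% after 4 h and 39.5% after 8 h. Before thinning the shares were 26.6%, 55.8%, 45.6% and 53.7%. Cells with 3 or more thinned RARA UMIs made up 0.0751% at 0 h and 3.70% at 2 h (2.65% to 5.0%). With at most 2 UMIs counted per cell the changes were 1.24, 0.81 and 1.01, so the higher level was not held by a few cells alone.

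Ishikawa cells held less RARA and showed a smaller change. The level was 8.49 CPM (7.10 to 10.1) before E2, 13.8 CPM (12.5 to 15.2) after 2 h, 10.6 CPM (9.19 to 12.1) after 4 h and 11.6 CPM (10.4 to 12.8) after 8 h. Only the 2 h pool was past the rule, with a change of 0.64, and the 4 h pool (0.29) had an interval of the ratio that reached 1 (0.996 to 1.57). Of thinned Ishikawa cells, 10.9% had a RARA UMI before E2, and 15.4%, 13.7% and 13.5% did so at the later times. With a pseudocount of 5 CPM the 2 h change was 0.48 and no longer past the rule. In cells that lacked UMIs of TOP2A and MKI67, a pair of proliferation genes, the changes were 0.87, 0.64 and 0.64, all past it.

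The genes whose 3 changes lay nearest to those of RARA, by Euclidean distance among genes past the minimum, were IER3, SIAH2 and XBP1 in T-47D and SLC30A1, LFNG and PPIF in Ishikawa. In T-47D the immediate-early gene IER3 changed by 1.27, 0.96 and 1.08, and SIAH2, a ubiquitin ligase gene, by 1.28, 1.02 and 1.15. XBP1, a transcription factor of the unfolded protein response, changed by 1.24, 1.01 and 1.04. These distances rest on 3 values each and are a description.

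Genes that act with RARA showed few changes. Of 11 retinoic acid targets, 4 passed the minimum in Ishikawa and 2 in T-47D, and 1 was past the rule, DHRS3 in Ishikawa. DHRS3, which encodes an enzyme that reduces retinal to retinol, rested on 25, 234, 287 and 601 UMIs in the 4 Ishikawa pools in order of time. Its level went from 1.63 CPM to 7.84, 14.8 and 19.4 CPM, and the ratio was 11.9 at 8 h (7.96 to 18.5). The gene passed the minimum only through the 4 and 8 h pools in which it was higher. Of all Ishikawa genes tested, 0.786%, 0.634% and 0.812% were past the rule as higher at 2, 4 and 8 h. In T-47D DHRS3 was under the minimum, with 66, 109, 68 and 27 UMIs, or 1.99, 4.11, 2.29 and 2.09 CPM. CYP26A1 and CYP26B1, which encode retinoic acid hydroxylases and are the classical readout of retinoic acid signalling, had 7 to 23 UMIs in each Ishikawa pool and at most 3 in each T-47D pool. The binding protein gene CRABP2 was at 187, 189, 181 and 157 CPM in T-47D. Of 13 retinoid enzymes and carriers, 6 and 2 passed the minimum and DHRS3 in Ishikawa was again the 1 past the rule. The median change of the retinoic acid targets past the minimum lay between -0.23 and 0.21 over both lines and all times, beside medians of all genes between -0.014 and 0.0063.

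NR2F1 (ENSG00000175745) was lower after E2 in both lines. It encodes COUP-TFI, an orphan receptor best known as a repressor and for its part in the developing nervous system. In T-47D the level was 18.6 CPM (17.2 to 20.1) before E2, 8.56 CPM (7.48 to 9.75) after 2 h, 11.4 CPM (10.2 to 12.6) after 4 h and 9.51 CPM (7.91 to 11.4) after 8 h. No E2 pool overlapped the 0 h interval, and the changes were -1.04, -0.66 and -0.90. At 2 h this was the lowest change of the 7440 genes, and at 4 and 8 h NR2F1 was 18th from the lowest.

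In Ishikawa the NR2F1 level was 15.9 CPM (14.0 to 18.1) before E2, 9.11 CPM (8.06 to 10.3) after 2 h, 8.47 CPM (7.22 to 9.87) after 4 h and 9.36 CPM (8.31 to 10.5) after 8 h. The changes were -0.75, -0.84 and -0.71, and NR2F1 ranked 23rd, 6th and 20th from the lowest of 7885 genes. The levels after E2 did not differ beyond their counting intervals, with ratios of 0.930 from 2 to 4 h (0.761 to 1.13) and 1.10 from 4 to 8 h (0.909 to 1.35). In T-47D the 4 h level was 1.33 times that at 2 h (1.12 to 1.58). With a pseudocount of 5 CPM the NR2F1 changes were -0.57, -0.64 and -0.54 in Ishikawa, past the rule at 4 h alone, and -0.80, -0.53 and -0.70 in T-47D, past it at 2 and 8 h.

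The T-47D value at 0 h rested in part on a small number of cells rich in NR2F1. At 0 h, 22 of 1525 cells held 5 or more NR2F1 UMIs, with up to 20 in a single cell, and these cells carried 188 of the 617 UMIs, or 30.5%. At 8 h no cell held 5 or more, and the highest had 4. Counted with at most 2 UMIs per cell, the T-47D changes were -0.77, -0.43 and -0.49, so that the 4 and 8 h changes were short of 1.5-fold. This alternative was chosen after the per-cell counts were seen, and the same count left all 3 Ishikawa changes past 1.5-fold, at -0.67, -0.77 and -0.61. The levels so counted were 13.2, 7.35, 9.545 and 9.13 CPM in T-47D and 13.8, 8.27, 7.70 and 8.71 CPM in Ishikawa. Their mean in each line was under the 10 CPM minimum, so with this count NR2F1 was not past the full rule in either line.

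The share of cells with an NR2F1 UMI was lower after E2 as well. In T-47D the thinned share was 16.2% (14.3% to 18.3%) before E2, 9.15% (7.50% to 11.03%) after 2 h, 11.5% (9.80% to 13.5%) after 4 h and 11.4% (8.77% to 14.4%) after 8 h. The 8 h interval reached just past the lower end of that at 0 h. In Ishikawa the share was 16.1% at 0 h (13.4% to 19.1%) and then 9.04%, 7.78% and 10.2%, with no overlap of the intervals with 0 h. Unthinned shares were 22.2%, 13.1%, 16.5% and 17.4% in T-47D and 19.97%, 13.4%, 13.1% and 14.4% in Ishikawa.

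**Figure D2:**
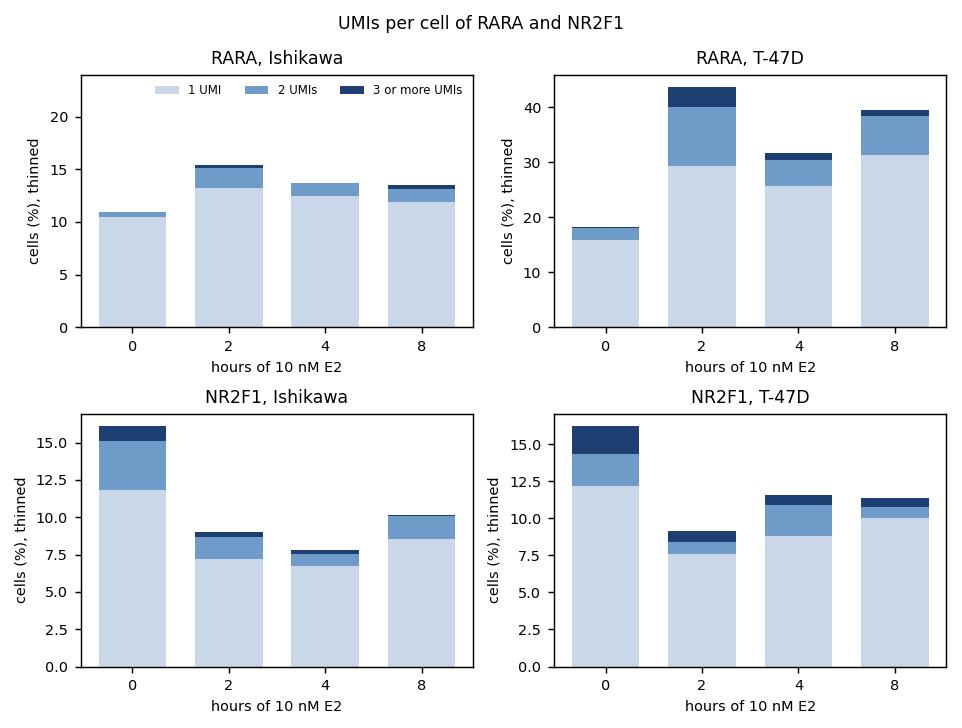
Percent of thinned cells (y axis, own scale in each panel) with 1, 2, or 3 or more UMIs of RARA (top) and NR2F1 (bottom) against hours of 10 nM E2 (x axis) in each line. Cells with 3 or more RARA UMIs in T-47D went from 0.0751% at 0 h to 3.70% at 2 h, and cells with 3 or more NR2F1 UMIs from 1.88% at 0 h to 0.739% at 2 h.

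The Ishikawa NR2F1 calls depended on which cells were kept. In cells under 1% GFP and in cells that lacked UMIs of TOP2A and MKI67 the gene's mean was under 10 CPM, and it was then not called. The changes there were -0.83, -1.10 and -0.73 in cells under 1% GFP, and -0.57, -0.47 and -0.66 in cells without the proliferation genes, where the 2 and 4 h changes were also short of the threshold. Over every barcode called to 1 time point, with no limit on cell quality, the changes were -0.77, -0.75 and -0.58, the last just short of the threshold.

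Cell-to-cell variation of NR2F1 was high for its level before E2. In thinned 0 h cells the coefficient of variation (CV, the SD over the mean) was 3.25 in T-47D, the highest among the genes nearest in mean (100 on each side), and 2.74 in Ishikawa, the fifth highest. The Fano factor (variance over mean, 1 for counting noise alone) was 2.82 in T-47D and 1.45 in Ishikawa. RARA ranked 142nd and 183rd among its own neighbours in T-47D and Ishikawa, with Fano factors of 1.01 and 0.95. NR2F1 and RARA thus differed in how evenly cells held them as well as in direction.

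Among the genes nearest to NR2F1 in their changes were HES1 and BAMBI in T-47D and AC144450.1, LOX and JAG1 in Ishikawa. HES1, a repressor induced by Notch signalling, changed by -0.83, -0.83 and -0.89 in T-47D, and BAMBI, a decoy receptor of the TGF-β family, by -0.81, -0.81 and -0.92. JAG1, a Notch ligand, changed by -0.90, -0.91 and -0.58 in Ishikawa, and LOX, a lysyl oxidase that crosslinks collagen, by -0.68, -0.68 and -0.84.

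NR2F6 (ENSG00000160113) was the most abundant member in Ishikawa. It encodes EAR2, a COUP-TF family member that acts mostly as a repressor. The Ishikawa level was 126 CPM (120.03 to 131) before E2, 199.9 CPM (195 to 205) after 2 h, 188 CPM (182 to 195) after 4 h and 143 CPM (139 to 148) after 8 h. All E2 pools were above 0 h without overlap, and the level at 8 h was 0.761 times that at 4 h (0.728 to 0.795). The changes were 0.67, which is past the rule, 0.58 and 0.19. At 4 h it lay just under the threshold (0.581 against 0.585), and with TMM or median-of-ratios scaling it was just past it, at 0.63 with TMM.

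T-47D cells held a like amount of NR2F6 that stayed level. The values were 132, 130.3, 129.6 and 129 CPM at 0, 2, 4 and 8 h, and the ratios to 0 h had intervals from 0.920 to 1.03, which include 1. Thinned cells with an NR2F6 UMI made up 83.9%, 83.1%, 84.7% and 79.2% in T-47D, and 76.9%, 85.4%, 82.2% and 76.9% in Ishikawa. NR2F6 was evenly spread over T-47D cells at 0 h, where its CV ranked 189th from the highest among the genes nearest in mean (100 on each side). Among genes past the minimum in Ishikawa, those nearest in their changes were FAM102A, CCDC88C and PPARD, the last also a nuclear receptor.

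NR2F2 (ENSG00000185551), which encodes COUP-TFII, separated the lines. In T-47D its level was 152 CPM at 0 h (148 to 156) and 124, 123 and 122 CPM at 2, 4 and 8 h. The changes of -0.29, -0.30 and -0.31 were under 1.5-fold, and the intervals of the ratio, from 0.760 to 0.854 over the 3 times, left out 1. Of all T-47D genes tested, 30.3% to 38.7% had such an interval at a given time, so this alone does not set NR2F2 apart. In Ishikawa NR2F2 had 14, 28, 11 and 12 UMIs at 0, 2, 4 and 8 h, and no change is given. NR2F1 and NR2F2 are close paralogs, but NR2F1 was at 15.9 CPM in the Ishikawa 0 h pool, where NR2F2 was at 0.915 CPM. How far reads of the pair were assigned to the wrong gene was not tested.

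**Figure D3:**
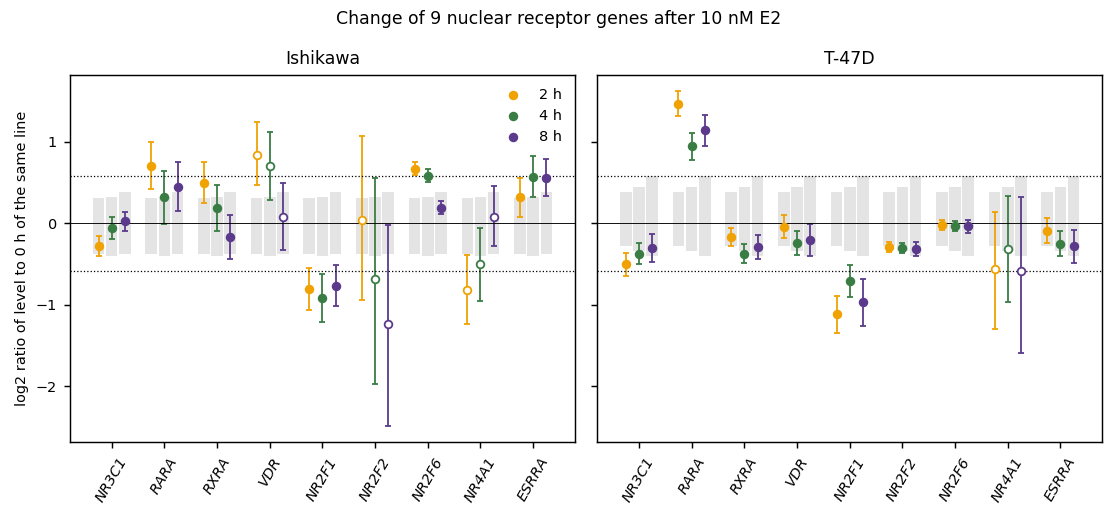
Log2 of the plain ratio of each later pool to 0 h of the same line (y axis) for the 9 receptor genes (x axis) at 2, 4 and 8 h, with exact intervals as bars, filled points for genes past the 10 CPM minimum and open points for genes under it. Grey bars span the central 95% of the changes of all genes tested, computed with a pseudocount of 1 CPM, and dotted lines mark 1.5-fold. RARA in T-47D stands highest and NR2F1 lies below the dotted line in both lines.

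NR3C1 (ENSG00000113580) encodes the receptor of cortisol, a regulator of metabolism, inflammation and differentiation. In Ishikawa its level was 58.2, 47.9, 55.9 and 59.2 CPM at 0, 2, 4 and 8 h. The 2 h pool was the low one, with a ratio to 0 h of 0.824 (0.757 to 0.896), and the 4 and 8 h pools overlapped 0 h. In T-47D the level was 36.6 CPM at 0 h (34.5 to 38.7) and 25.7, 28.2 and 29.6 CPM after E2. All 3 E2 pools lay below 0 h without overlap, with changes of -0.49, -0.36 and -0.29, and none was past 1.5-fold. These changes ranked 52nd, 144th and 405th from the lowest of 7440 genes. Over both lines and all times, 30.0% to 38.7% of the genes tested had a ratio interval that left out 1, so such an interval alone does not set NR3C1 apart. The thinned share of T-47D cells with an NR3C1 UMI was 38.0% before E2 and 28.2%, 29.2% and 31.6% after it.

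Genes linked to the glucocorticoid receptor that passed the minimum were past the rule in single cases. Of 14 target genes, 7 passed the minimum in Ishikawa and 5 in T-47D. In Ishikawa CEBPD, a C/EBP transcription factor, was past the rule as higher at 8 h (40.1 to 65.8 CPM, 0.70). CDKN1C, a CDK inhibitor, was lower there at 4 h (-0.67) and 8 h (-0.84), from 20.8 to 12.8 and 11.2 CPM. In T-47D the metallothionein gene MT2A was lower at 8 h (755 to 416 CPM, -0.86). Of all genes, 0.812% were higher and 0.469% lower in Ishikawa at 8 h, 0.621% lower there at 4 h, and 0.726% lower in T-47D at 8 h. Targets under the minimum were not called. Among them in T-47D, TSC22D3, DUSP1 and CDKN1C had 8 h ratios of 0.415, 0.582 and 0.445, with intervals below 1. ZBTB16 had an interval above 1, on 2 UMIs at 0 h and 13 at 8 h. The median change of the targets past the minimum was -0.14, -0.01 and -0.11 in Ishikawa at 2, 4 and 8 h, while the T-47D medians were -0.21, -0.15 and -0.25. Of 10 chaperones and cortisol enzymes, 8 passed the minimum in each line, and FKBP4, an HSP90 cochaperone of steroid receptors, was past the rule at every time in T-47D. Its level there was 311, 504, 623 and 737 CPM, and in Ishikawa 199.7, 238, 244 and 274 CPM, with changes of 0.25, 0.29 and 0.46 that stayed within 1.5-fold.

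RXRA (ENSG00000186350), 1 of the retinoid X receptors that pair with RARA and VDR, was higher in T-47D than in Ishikawa throughout. Its T-47D level was 45.9, 40.8, 35.4 and 37.6 CPM in order of time, and the lowest ratio to 0 h was 0.772 at 4 h (0.713 to 0.836). In Ishikawa it was 11.6, 16.4, 13.2 and 10.4 CPM. There the 2 h pool was the high one, with a ratio of 1.41 (1.19 to 1.68), and the 4 and 8 h pools overlapped 0 h. Over every barcode called to 1 time point, the RXRA changes in Ishikawa were 0.24, -0.033 and -0.28, against 0.46, 0.17 and -0.15 in kept cells. None of these changes was past 1.5-fold. Ratio intervals left out 1 for 30.0% of the genes tested in Ishikawa at 2 h and for 38.4% in T-47D at 4 h. RXRA and RARA in T-47D thus went in opposite directions, and at 2 h their levels were close, at 40.8 and 41.9 CPM, against 45.9 and 15.2 CPM at 0 h. A 3′ library counts a transcript once whatever its length, so these levels can be set side by side, within what capture allows.

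VDR (ENSG00000111424) encodes the receptor of calcitriol, the active form of vitamin D. In T-47D its level was 26.6, 25.8, 22.5 and 23.1 CPM, and the changes lay between -0.04 and -0.23. In Ishikawa it was under the minimum, with 74, 259, 152 and 158 UMIs at 0, 2, 4 and 8 h in pools of different size. Thinned Ishikawa cells with a VDR UMI made up 5.03% (3.51% to 6.96%) before E2, 9.89% (8.32% to 11.6%) after 2 h, 10.2% (8.21% to 12.4%) after 4 h and 6.14% (4.91% to 7.56%) after 8 h. The 2 and 4 h shares lay above 0 h without overlap and the 8 h share did not. Of 10 vitamin D genes, 2 passed the minimum in each line, and IGFBP3, a carrier of insulin-like growth factors, was past the rule as lower in Ishikawa at 8 h (394 to 245 CPM, -0.69). CYP24A1, the calcitriol-degrading enzyme that serves as the usual readout of VDR activity, had no UMI in any pool.

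ESRRA (ENSG00000173153) encodes ERRα, which binds DNA much as the estrogen receptor does but not estradiol, and drives genes of mitochondrial metabolism. In Ishikawa its level was 13.6 CPM (11.8 to 15.6) before E2, 16.9 CPM (15.5 to 18.5) after 2 h, 20.2 CPM (18.2 to 22.3) after 4 h and 20.04 CPM (18.5 to 21.7) after 8 h. The 4 and 8 h pools lay above 0 h, with changes of 0.54 and 0.53 that stayed just within 1.5-fold. In T-47D it was 24.5, 22.9, 20.6 and 20.1 CPM, with changes of -0.09, -0.24 and -0.27. The levels of both lines overlapped at 4 and 8 h after differing 1.80-fold at 0 h. Cells with an ESRRA UMI, after thinning, made up 14.3%, 18.5%, 22.04% and 21.3% of the Ishikawa pools, while the T-47D shares were 29.98%, 28.7%, 25.9% and 26.2%.

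Of 14 ESRRA targets and coactivators, 10 passed the minimum in each line and none was past the fold rule. Their median change lay between -0.04 and 0.07 over both lines and all times. The list was built on genes of the citric acid cycle, respiratory chain and fatty acid oxidation. The coactivator gene PPARGC1B was under the minimum in Ishikawa, where it had 60, 283, 189 and 282 UMIs at 0, 2, 4 and 8 h, or 3.92, 9.48, 9.76 and 9.10 CPM. In T-47D it had 63, 57, 77 and 32 UMIs. PPARGC1B was picked out after its values were seen.

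NR4A1 (ENSG00000123358) was under the minimum in both lines. In Ishikawa it had 92, 102, 82 and 197 UMIs at 0, 2, 4 and 8 h in pools of different size, or 6.01, 3.42, 4.24 and 6.36 CPM. The ratios to 0 h there were 0.568 (0.424 to 0.762), 0.705 (0.517 to 0.959) and 1.06 (0.821 to 1.37), with no call made. In T-47D it had 50, 27, 36 and 13 UMIs, or 1.51, 1.02, 1.21 and 1.01 CPM. The thinned share of Ishikawa cells with a UMI was 5.47%, 3.75%, 4.07% and 5.61%, with overlapping intervals. In T-47D it was between 1.38% and 2.55%. Its CV in Ishikawa 0 h cells was the second highest among the genes nearest in mean, with a Fano factor of 1.57 and up to 8 UMIs in a cell.

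Other immediate-early genes were mostly lower in Ishikawa at 2 h. Of 16, 6 passed the minimum in Ishikawa, and at 2 h 4 of these were past the rule as lower and none as higher, against 0.659% of all genes as lower. JUNB changed by -0.75, ATF3 by -0.80, IER2 by -0.71 and IER3 by -1.57. IER3 passed the minimum there only through its 0 h pool, in which it was higher. Its levels at 2, 4 and 8 h were 7.43, 7.39 and 8.61 CPM. The median of the 6 was -0.73 at 2 h, beside -0.01 for all genes. At 8 h EGR1, a zinc finger transcription factor, was higher there (13.9 to 36.8 CPM, 1.35). In T-47D 5 passed the minimum, and IER3 was past the rule as higher at each time (123 to 299, 241 and 262 CPM), the opposite direction to Ishikawa. These genes, like NR4A1, respond to handling and serum as well as to hormones, and each time point was handled as a culture of its own, so handling and E2 cannot be told apart.

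**Figure D4:**
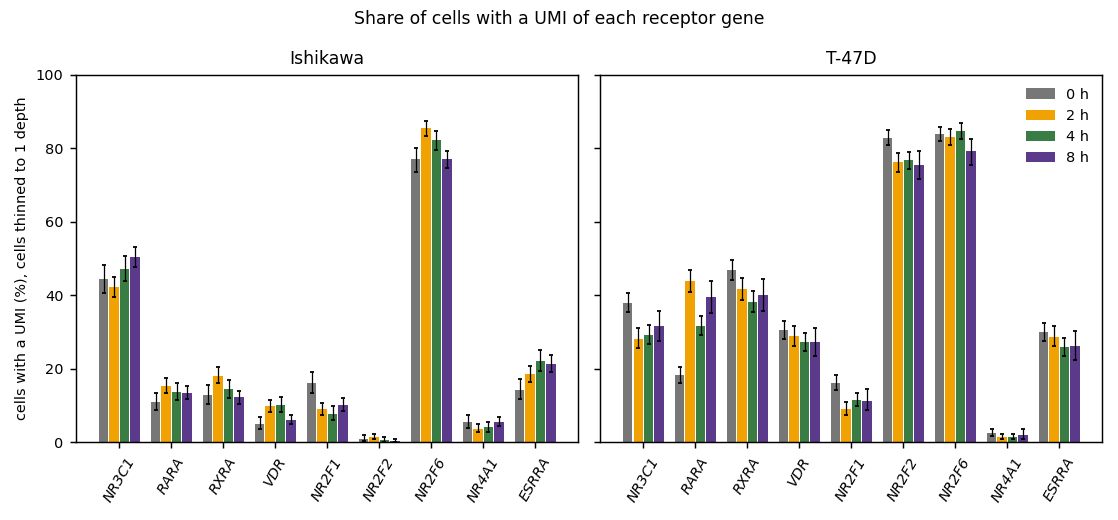
Percent of cells with at least 1 UMI of each receptor gene (y axis) by gene (x axis) at 0, 2, 4 and 8 h, after thinning to 12539 (Ishikawa) and 14495 UMIs (T-47D) per cell, with exact binomial intervals as bars. RARA in T-47D went from 18.2% to 43.8% at 2 h, and NR2F1 in both lines from about 16% at 0 h to 7.78% to 11.5% after E2.

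In droplet data free RNA can give UMIs in cells that do not express a gene, and these pools hold no second cell type that could serve as a background for the receptors, so the part of free RNA in the shares was not tested. The lowest member share was that of NR2F2 in Ishikawa, between 0.449% and 1.38%.

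Before E2 the lines differed in most of the receptors, as they did in most genes, so the number of receptors that differed does not set them apart. Each line is 1 library, and line and library cannot be told apart. For this comparison the minimum was applied to the mean of a gene's levels before E2 in both lines. Of the 8023 genes that passed it, 23.7% were at least 1.5-fold higher in T-47D and 33% at least 1.5-fold lower. NR2F2 was 166-fold higher in T-47D (98.7 to 304), VDR 5.49-fold (4.33 to 7.06), RXRA 3.95-fold (3.38 to 4.64), ESRRA 1.80-fold (1.54 to 2.11) and RARA 1.79-fold (1.47 to 2.19). NR3C1 was 1.59-fold higher in Ishikawa (1.46 to 1.74). NR2F1 (1.17-fold, 1.00 to 1.36) and NR2F6 (1.05-fold, 0.998 to 1.11) were within 1.5-fold of each other. NR4A1 was under the minimum in both, with 6.01 CPM in Ishikawa and 1.51 CPM in T-47D. Thinned to a shared depth of 12539 UMIs, 78.0% of T-47D cells and 1.04% of Ishikawa cells had an NR2F2 UMI.

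The order of levels at 0 h in T-47D was NR2F2 (152 CPM), NR2F6 (132), RXRA (45.9), NR3C1 (36.6), VDR (26.6), ESRRA (24.5), NR2F1 (18.6), RARA (15.2) and NR4A1 (1.51). VDR and ESRRA did not differ beyond their intervals, whereas NR2F1 and RARA did. At 2 h the RARA level was above those of RXRA, NR3C1, VDR, ESRRA and NR2F1, though its interval overlapped that of RXRA. In Ishikawa the order was NR2F6 (126 CPM), NR3C1 (58.2), NR2F1 (15.9), ESRRA (13.6), RXRA (11.6), RARA (8.49), NR4A1 (6.01), VDR (4.84) and NR2F2 (0.915). From NR2F1 down to VDR the interval of each gene overlapped that of the next.

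**Figure D5:**
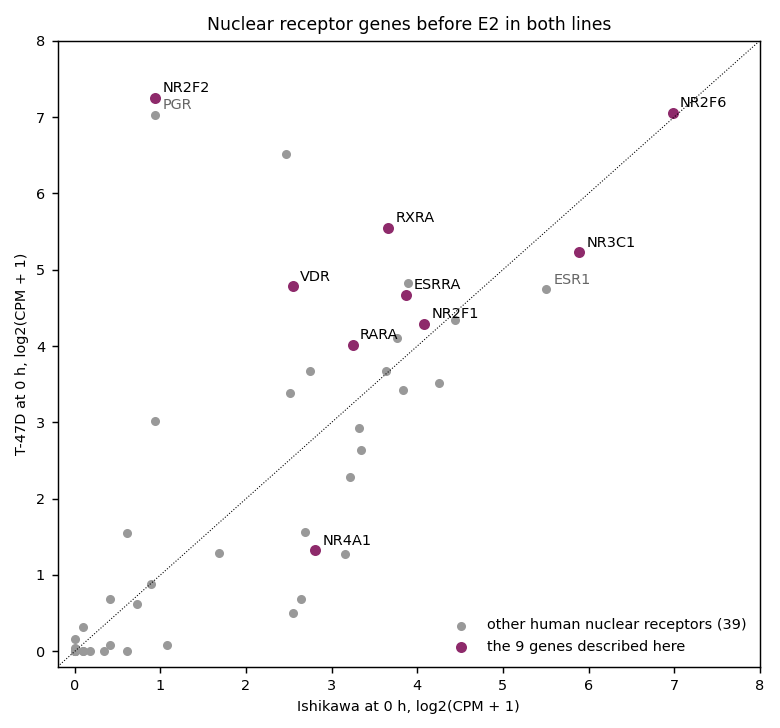
Level at 0 h in Ishikawa (x axis) and T-47D (y axis), both as log2(CPM + 1), for 48 human nuclear receptor genes, with the 9 genes described here in purple, the other 39 in grey and the dotted line marking equal levels. NR2F2 lies far above the line beside PGR, and NR2F6 lies on it at the highest level of the family in Ishikawa.

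Within the receptor family, 14 of 48 genes passed the minimum in Ishikawa and 18 of 48 in T-47D, and 3 and 9 had no UMI in any pool of the line. Of the 39 receptors that are not members, 8 and 10 passed the minimum. PPARD, a receptor of fatty acids, was past the rule as higher in Ishikawa at 2 h (8.30 to 13.8 CPM, 0.67). It passed the minimum through its 2 and 4 h pools. PGR, the progesterone receptor and a classical E2 target, was higher in T-47D at each time, with levels of 129.5, 261, 281 and 355 CPM and changes of 1.00, 1.11 and 1.45. In Ishikawa PGR was under the minimum, with 14, 68, 52 and 146 UMIs. ESR1 was at 44.5, 43.96, 34.1 and 35.5 CPM in Ishikawa, and at 25.8, 29.1, 32.9 and 39.3 CPM in T-47D, where the 8 h change of 0.587 was just past the rule. RARA at 2 h in T-47D thus had a higher change than PGR at 2 h, 1.41 against 1.00, and PGR a higher one at 8 h, 1.45 against 1.09. The other retinoic acid receptors were not past the rule, with RARG at 16.2, 14.6, 15.1 and 12.1 CPM in T-47D and RARB at no more than 4 UMIs in any pool of that line.

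All 16 nuclear receptor coregulators passed the minimum in both lines. NRIP1, a corepressor gene, was past the rule as higher in both lines at 2 h, with 31.2 CPM before E2 and 48.0 CPM at 2 h in Ishikawa (0.60), and 23.2 and 44.3 CPM in T-47D (0.90). It was past the rule again in T-47D at 8 h (38.3 CPM, 0.70). The median change of the 16 genes lay between -0.06 and 0.04 in both lines.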

How the data were processed

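Both gene expression libraries (10x Genomics 3′ v3.1) were used. The deposited matrices hold raw UMI counts per gene and barcode, which the authors made with Cell Ranger 3.1.0 on hg38, per the labels. The authors called time points from the tags, and their doublet calls (1906 and 1442 barcodes) and uncalled barcodes were left out here. Pairs of cells from 1 time point carry 1 tag and were not removed by the tags, and no further doublet caller was run. Cells were kept within the limits of the study's methods, which for Ishikawa are 8500 to 35000 UMIs, 2700 to 6000 genes and a mitochondrial share under 7%, while T-47D cells had to hold 7500 to 40000 UMIs and 1500 to 6000 genes, with a share under 20%. The T-47D limits removed none of the called cells. The study's own test treats cells as replicates and was not used.

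The UMI counts of a pool's kept cells were added up and scaled to the pool's total, reporters included. GFP and tdTomato were left out of the genes tested. Intervals are exact Poisson (levels), Clopper-Pearson (shares) and conditional binomial (ratios, without pseudocount) at 95%, computed with Python 3.11.15, numpy 2.4.6, scipy 1.17.1 and pandas 2.3.3. TMM factors came from edgeR 4.0.16 in R 4.3.3. Thinning drew UMIs without replacement to the 10th percentile of kept cells of each line. The steps were tested on simulated counts.

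The members and the gene lists, taken from general knowledge, were chosen with earlier results of these data known. Members are named in every pool. From each list, the genes named are those past the fold rule, at most 4 per line, and ESR1 and PGR. The 3 genes nearest in change are named for members past the rule. Some genes that these rules name are not reported here. Other genes given by value (CYP26A1, CYP26B1, CYP24A1, CRABP2, RARG, RARB and PPARGC1B) were picked for their known roles after their values were seen. TSC22D3, DUSP1, CDKN1C and ZBTB16 in T-47D were also picked after their values were seen, because their 8 h intervals left out 1. The barcode libraries' tag sequences were not used here.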

Additional observations from a re-analysis of the deposited data

Results flagged for a closer look

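VDR, NR2F6 and ESRRA were flagged by the sign of their changes. Every E2 pool of Ishikawa lay above its vehicle pool and every E2 pool of T-47D below its own. Each pool is 1 culture, so this difference was not tested. VDR had log2 changes of 0.73, 0.60 and 0.064 in Ishikawa, in order of time, where it was under the 10 CPM minimum, and of -0.039, -0.23 and -0.20 in T-47D. NR2F6 had changes of 0.67, 0.58 and 0.19 in Ishikawa, while in T-47D they were -0.022, -0.030 and -0.038, with counting intervals that include no change. ESRRA had changes of 0.30, 0.54 and 0.53 in Ishikawa, while in T-47D they were -0.091, -0.24 and -0.27. The counting intervals also included no change for VDR at 8 h in Ishikawa and for VDR and ESRRA at 2 h in T-47D. As a mean over cells, VDR in T-47D at 2 h was slightly positive (0.0079). Over every barcode called to 1 time point, the ESRRA changes in Ishikawa were 0.083, 0.33 and 0.35. The 3 values of a line share its vehicle pool, so they are not independent of each other. How many of all genes show the same signs was not counted, so this pattern alone does not set VDR, NR2F6 and ESRRA apart.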

How the results depend on the processing

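Under the alternatives, 673 of 687 member changes stayed within their counting interval, 14 moved beyond it, none that was past the rule reversed, and 9 under it changed sign. Numbers of members past the rule at 2, 4 and 8 h were 3, 1 and 1 in Ishikawa and 2 at each time in T-47D. In Ishikawa at 2 h they became 1 with a pseudocount of 5 CPM, 5 with no minimum, 1 with a minimum of 50 CPM and 0 at 2-fold. At 4 h they became 2 with TMM factors, median-of-ratios factors, no minimum, an upper UMI limit of 1.5 times the median per cell or the mean over cells (NR2F6 or VDR joining NR2F1). The 4 h number became 3 at the lower fold (0.32 on the log2 scale) and 0 at 50 CPM or 2-fold. At 8 h they became 0 with a pseudocount of 5 CPM, 50 CPM, 2-fold, every called barcode or cells under 1% GFP, and 3 at the lower fold. In T-47D they became 0 at each time at 50 CPM, 1 at 4 h with a pseudocount of 5 CPM, 4 at 4 h at the lower fold, and 0 and 1 at 4 and 8 h at 2-fold. A minimum of 50 CPM leaves RARA and NR2F1 out by its construction.

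Genes past the rule at any time, 193 in Ishikawa and 271 in T-47D, became 127 (Ishikawa) with a pseudocount of 5 CPM, 802 and 770 with no minimum, 47 and 81 at 50 CPM, 1065 and 1063 at the lower fold, 36 and 81 at 2-fold, and 457 in Ishikawa cells without TOP2A and MKI67 UMIs, of which there are fewer. Listed pathway genes past it, 12 and 6, became 25 and 12 with no minimum, 24 and 12 at the lower fold, 3 and 3 at 2-fold, and 3 in Ishikawa at 50 CPM. Among single members, NR4A1 in Ishikawa at 2 h was at -1.37 in cells without the proliferation genes, against -0.67.

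No paired analysis was possible because each line and time point is 1 culture and no result comes from a test. Differences between cultures cannot be told apart from E2, and the counting intervals do not hold them. Scaling moved the median of all genes by under 0.1 on the log2 scale. At these depths a member under 10 CPM rests on 11 to 259 UMIs per pool, and smaller changes of such a gene were not detectable.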
